A study of Saccharomyces cerevisiae with 14 samples.

Results

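The genes described here code for the factors that start, extend and end protein synthesis on the cytosolic ribosome of *Saccharomyces cerevisiae*. They were chosen by name and step of translation: 35 genes were listed, and 32 of them had a probe set named for them, out of 5443 genes tested. *TIF1*, *TEF1* and *EFT1* had no probe set of their own name. Their near-identical partners *TIF2*, *TEF2* and *EFT2* were measured by probe sets whose type marks them as shared between similar transcripts, so each of these 3 values may hold RNA of both genes. The 32 genes comprised 6 that bind the mRNA cap or the poly(A) tail, 6 subunits of eIF3, 4 factors of start codon selection and subunit joining, 3 subunits of eIF2, 5 of eIF2B, 6 elongation factors and 2 release factors.

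In initiation, eIF4E binds the 5′ cap, eIF4G links it to the helicase eIF4A and to the poly(A)-binding protein, and eIF3 helps bring the small ribosomal subunit to the mRNA. eIF2 carries the initiator tRNA and is recharged with GTP by the exchange factor eIF2B, a step that stress can block by phosphorylation of eIF2. Elongation factors then deliver aminoacyl-tRNAs and move the ribosome along, and release factors end synthesis at the stop codon. In budding yeast the mRNAs of ribosomal proteins and of many translation factors are known to fall together when growing cells meet stress.

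The study compared polyadenylated RNA of 3 strains on 14 Affymetrix yeast arrays, asking which heat responses go with thermotolerance. Cells grown exponentially in YPD medium, a rich medium with yeast extract, peptone and glucose, were taken at 39°C after 30 min of heat or untreated at 30°C. For the heat, aliquots were moved to pre-heated flasks in a water bath, and the methods describe no such move for untreated cells. Effects of the move, the vessel and the culture volume thus cannot be told apart from those of temperature in any 39°C against 30°C difference. The strains were NFRI 3236, which the study describes as heat tolerant, NFRI 3155, described as heat sensitive, and the control strain S288C, a laboratory strain. No introduced mutation or drug is named for any of them. NFRI 3236 and NFRI 3155 had 2 arrays at each temperature and S288C had 3, so each kind of heat tolerance is represented by a single strain. The methods state that duplicates came from cells grown independently, while the labels name no culture for an array and do not say which 2 of the 3 S288C arrays the duplicates were, so p-values measure the spread between these arrays.

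A value called relative signal is the deposited signal divided by the 75th percentile of all probe sets on the same array, and a log2 difference is taken between group means of its log2. A lower relative signal is thus a lower signal beside the array's 75th percentile, not a measured share of the mRNA. Equal masses of mRNA were labelled per array, so less of 1 transcript per cell cannot be told apart from more of the others. Differences were called at an adjusted p under 0.05 after Benjamini-Hochberg adjustment over all genes tested. The 75th percentile itself lay between 95.7 and 438 on the 14 arrays, and all 32 genes exceeded background on every array, taken as the 95th percentile of signals at probe sets for *Schizosaccharomyces pombe*. Replicate arrays correlated at r = 0.949 to 0.992 over the 4946 genes above background on all arrays. The heat shock genes *HSP26* and *SSA4*, a check of the temperature labels, were 157- and 31.3-fold higher at 39°C in NFRI 3236, 548- and 48.1-fold higher in NFRI 3155 and 457- and 84.8-fold higher in S288C. On the 3 arrays of S288C at 30°C, 0, 1 and 1 of 36 poly-A control probe sets, which detect RNAs added during labelling, exceeded background, while 28 to 36 did so on each of the remaining 11 arrays. The part of this difference in any comparison that uses S288C at 30°C was not tested.

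Most translation factor transcripts had a lower relative signal at 39°C in all 3 strains. Of the 32 genes, 26 fell in NFRI 3236, 27 in NFRI 3155 and 22 in S288C, counts that were 0, 11 and 3 when the arrays were not shifted to a common 75th percentile. Over all 5443 genes, 23.5% (2.22% without the shift) fell in NFRI 3236, 24.1% (9.24%) in NFRI 3155 and 28.2% (8.25%) in S288C. No factor rose in NFRI 3236 or NFRI 3155, and 1 rose in S288C, where 15.7%, 18.1% and 25.2% of all genes rose in NFRI 3236, NFRI 3155 and S288C. The median log2 difference of the factors was -1.10 in NFRI 3236, -1.19 in NFRI 3155 and -0.79 in S288C, beside -0.10, -0.08 and -0.04 for all genes. Standard errors of single genes ran from 0.20 to 0.43 in the NFRI strains and from 0.16 to 0.35 in S288C. The arrays at 39°C did not overlap those at 30°C for 31 factors in NFRI 3236, for all 32 in NFRI 3155 and for 28 in S288C. How many of all genes did so was not counted, so these counts do not set the factors apart from other genes.

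Of the 32 genes, 19 fell in all 3 strains, which 13.7% of all genes did. They were *CDC33*, *TIF4631*, *TIF2*, *TIF3* and *PAB1* of the cap and tail complex, *RPG1*, *PRT1*, *TIF35* and *TIF34* of eIF3, *SUI1*, *TIF11* and *TIF5*, *SUI3* and *GCD11* of eIF2, *GCN3* and *GCD6* of eIF2B, and *TEF4*, *EFT2* and *YEF3* of elongation. A further 6 fell in 2 strains (*HCR1*, *FUN12*, *GCD7*, *EFB1*, *SUP45* and *SUP35*) and 6 in 1 strain (*TIF4632*, *NIP1*, *SUI2*, *GCD1*, *TEF2* and *CAM1*). *GCD2*, the delta subunit of eIF2B, passed the test in no strain, with log2 differences of -0.42, -0.54 and -0.30 in NFRI 3236, NFRI 3155 and S288C. The most negative of the 3 strains' values was that of NFRI 3155 for 21 factors, of NFRI 3236 for 8 and of S288C for 3. The same ranking was not made over all genes, and no factor's heat response was called between NFRI 3236 and NFRI 3155. The plot of changes by gene sets the 3 strains' values side by side.

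**Figure D1:**
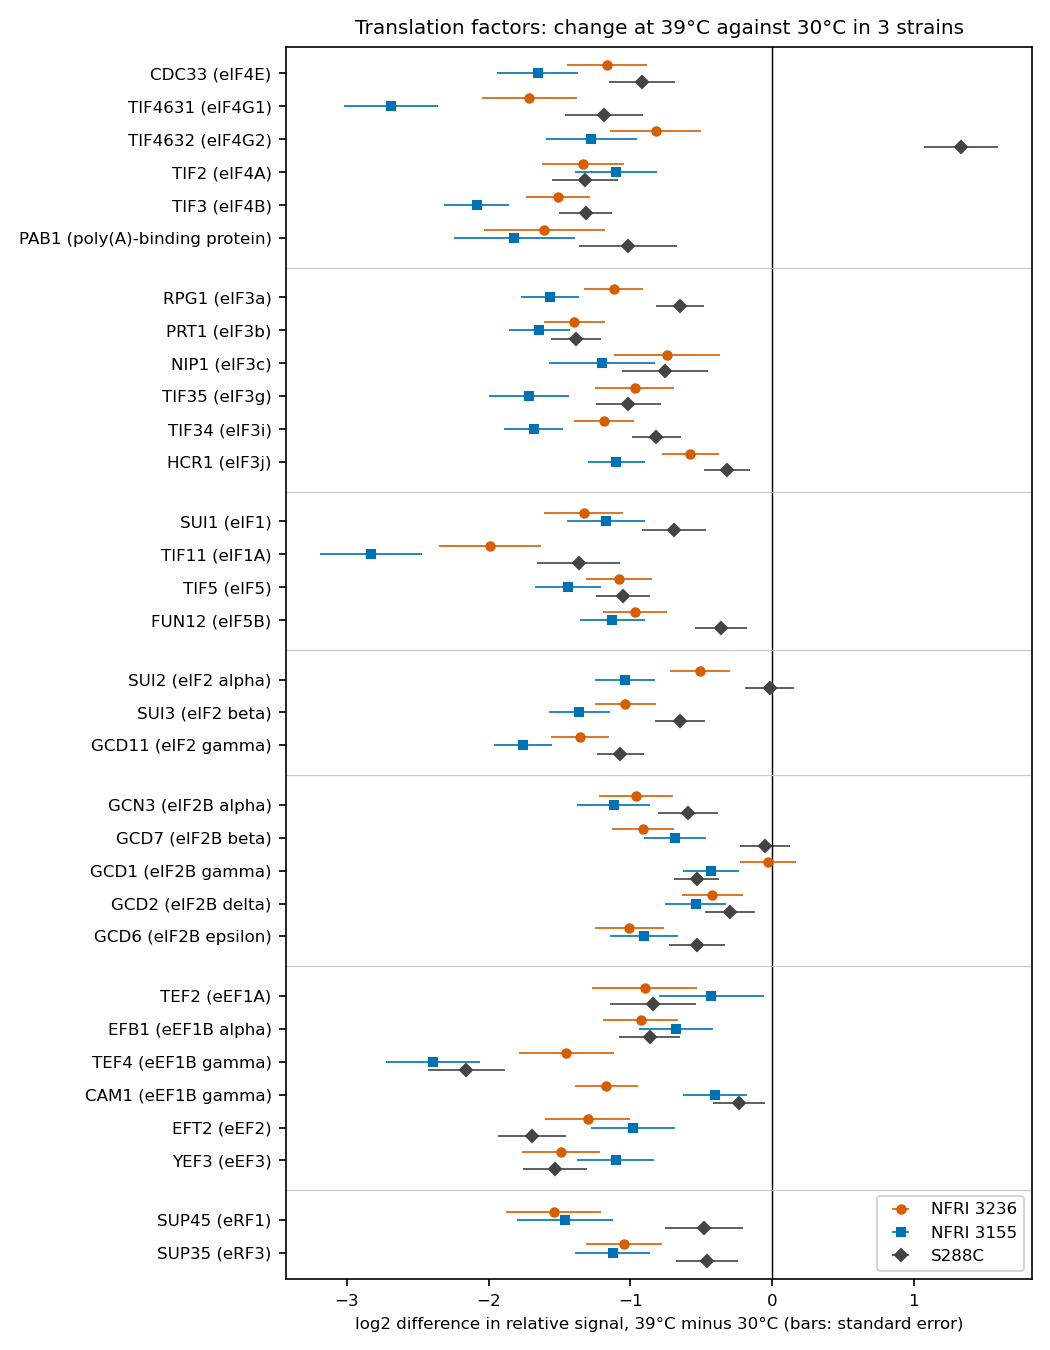
Log2 difference in relative signal at 39°C against 30°C for each of the 32 translation factors (rows, grouped by step), with points for NFRI 3236, NFRI 3155 and S288C and bars of 1 standard error. With the 75th percentile shift all values but that of *TIF4632* in S288C lie below 0; without it 6 factors in NFRI 3236 and 12 in S288C lie above 0, and under quantile normalization 3, 2 and 4 do in NFRI 3236, NFRI 3155 and S288C.

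Of the 6 genes that bind cap or tail, 5 fell in NFRI 3236, 6 in NFRI 3155 and 5 in S288C, with medians of -1.42, -1.74 and -1.10. The medians were -0.95, -1.38 and -0.48 under quantile normalization and -0.58, -1.52 and -0.50 without the shift. The 2 genes for eIF4G, the scaffold of the cap complex, parted in S288C, where *TIF4631* fell and *TIF4632* rose. *TIF4631* had relative signals of 0.748 and 0.743 at 39°C in NFRI 3236, against 1.91 and 3.13 at 30°C. In NFRI 3155 *TIF4631* had 0.499 and 0.812 at 39°C, against 3.75 and 4.51 at 30°C. The arrays of S288C read 0.530, 0.824 and 1.02 at 39°C, against 1.46, 1.96 and 1.83 at 30°C. No array at 39°C reached any array at 30°C of its strain, and the log2 differences were -1.71 ± 0.34 (SE), -2.69 ± 0.34 and -1.19 ± 0.27 in NFRI 3236, NFRI 3155 and S288C (adjusted p = 0.00146, 3.61e-05 and 0.00259).

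*TIF4632* had 0.331 and 0.438 at 39°C in NFRI 3236, against 0.531 and 0.855 at 30°C. It had 0.262 and 0.463 at 39°C in NFRI 3155, against 0.724 and 0.983 at 30°C. In S288C the order was turned, with 0.976, 0.745 and 0.805 at 39°C, against 0.273, 0.372 and 0.360 at 30°C. The groups did not overlap in any strain, with all arrays at 39°C lower in both NFRI strains and higher in S288C. *TIF4632* rose by 1.33 ± 0.26 (log2, SE; adjusted p = 7.75e-04) in S288C, a 2.52-fold difference, and fell by 1.28 ± 0.32 in NFRI 3155 (adjusted p = 0.00585). In NFRI 3236 its log2 difference of -0.82 ± 0.32 missed the threshold (adjusted p = 0.0564). The rise in S288C was also there in the deposited signals before any scaling, 127, 100.03 and 217 at 39°C against 26.1, 39.0 and 48.6 at 30°C, and was 1.94 (log2) without the shift and 1.30 under quantile normalization. Without the shift the log2 difference was 0.02 in NFRI 3236 and -1.06 in NFRI 3155.

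*TIF3*, coding for eIF4B, which stimulates the helicase eIF4A, had 2.00 and 2.51 at 39°C in NFRI 3236, against 6.72 and 6.07 at 30°C. In NFRI 3155 *TIF3* read 1.54 and 1.52 at 39°C, against 7.31 and 5.79 at 30°C. In S288C it read 2.48, 3.65 and 2.65 at 39°C, against 6.94, 7.55 and 7.08 at 30°C. All arrays at 39°C were below those at 30°C, by log2 differences of -1.51, -2.09 and -1.32 in NFRI 3236, NFRI 3155 and S288C. The eIF4A probe set, named *TIF2*, had 18.7 and 18.4 at 39°C in NFRI 3236, against 59.4 and 36.8 at 30°C. It had 17.0 and 22.4 at 39°C in NFRI 3155, against 43.9 and 40.04 at 30°C. In S288C it had 22.7, 18.9 and 14.4 at 39°C, against 57.2, 42.9 and 39.3 at 30°C. *TIF2* fell in each strain with no overlap, by log2 differences of -1.33, -1.10 and -1.32. Under quantile normalization *TIF2* read -0.25, -0.47 and -0.03, and the calls in NFRI 3236 and S288C were lost (adjusted p = 0.272 and 0.851). *CDC33*, the cap-binding eIF4E, and *PAB1*, the poly(A)-binding protein, fell as well. The log2 differences in NFRI 3236, NFRI 3155 and S288C were -1.17, -1.66 and -0.92 for *CDC33* and -1.61, -1.82 and -1.02 for *PAB1*, and both genes lost their calls in NFRI 3236 and S288C under quantile normalization.

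**Figure D2:**
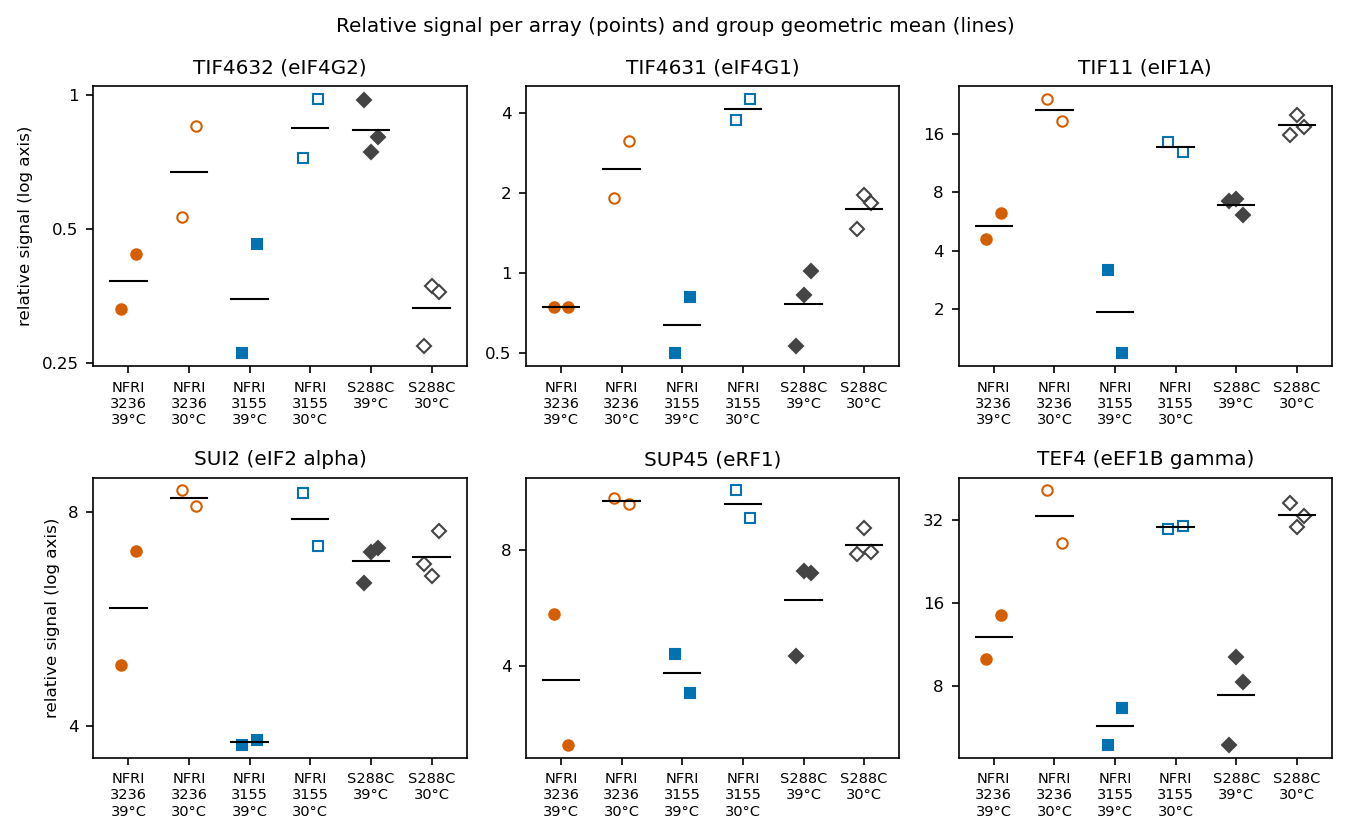
Relative signal (log axis) of *TIF4632*, *TIF4631*, *TIF11*, *SUI2*, *SUP45* and *TEF4* on each of the 14 arrays, filled symbols for 39°C and open symbols for 30°C, with lines at the geometric mean of each group. In S288C the 39°C arrays of *TIF4632* lie above the 30°C arrays and those of *SUI2* lie among them, while in both NFRI strains the 39°C arrays lie below the 30°C arrays in all 6 panels.

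Among the 6 subunits of eIF3, 5 fell in NFRI 3236, 6 in NFRI 3155 and 4 in S288C, with medians of -1.05, -1.61 and -0.79. These were -0.64, -1.37 and -0.63 under quantile normalization and -0.21, -1.39 and -0.19 without the shift. *PRT1*, the subunit eIF3b, had 3.91 and 3.49 at 39°C in NFRI 3236, against 9.71 and 9.72 at 30°C. In NFRI 3155 *PRT1* had 2.65 and 3.21 at 39°C, against 9.57 and 8.69 at 30°C. In S288C it had 1.86, 2.68 and 2.39 at 39°C, against 5.71, 5.77 and 6.43 at 30°C. *PRT1* fell in each strain with no overlap, the log2 differences being -1.40 ± 0.21, -1.64 ± 0.21 and -1.38 ± 0.18 (SE) in NFRI 3236, NFRI 3155 and S288C. *TIF35*, or eIF3g, read 6.97 and 7.29 at 39°C in NFRI 3236, against 15.99 and 12.2 at 30°C. In NFRI 3155 *TIF35* read 4.78 and 2.62 at 39°C, against 12.4 and 10.9 at 30°C. In S288C it read 8.51, 6.38 and 5.68 at 39°C, against 13.2, 13.5 and 14.3 at 30°C. The fall of *TIF35* was without overlap too, at log2 differences of -0.97, -1.72 and -1.02, the first being -0.37 and not called under quantile normalization (adjusted p = 0.315).

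*RPG1*, coding for the scaffold subunit eIF3a, and *TIF34*, for eIF3i, fell in all 3 strains. *RPG1* had 2.49 and 2.50 at 39°C in NFRI 3236, against 5.39 and 5.42 at 30°C. In NFRI 3155 *RPG1* had 1.25 and 1.76 at 39°C, against 4.64 and 4.16 at 30°C. In S288C it had 1.56, 1.90 and 1.82 at 39°C, against 2.78, 2.66 and 2.80 at 30°C. The groups of *RPG1* did not overlap, with log2 differences of -1.12, -1.57 and -0.65 in NFRI 3236, NFRI 3155 and S288C. *TIF34* had 4.62 and 6.01 at 39°C in NFRI 3236, against 12.8 and 11.3 at 30°C. In NFRI 3155 *TIF34* had 3.82 and 3.18 at 39°C, against 11.5 and 10.9 at 30°C. In S288C it had 5.50, 4.96 and 4.27 at 39°C, against 9.14, 8.51 and 8.20 at 30°C. No array of *TIF34* at 39°C reached those at 30°C, at log2 differences of -1.19, -1.68 and -0.82. *HCR1*, the loosely bound eIF3j, fell in NFRI 3236 (-0.58) and NFRI 3155 (-1.10), and its -0.32 in S288C was not past the test. *NIP1*, or eIF3c, fell in NFRI 3155 (-1.20), while its -0.74 in NFRI 3236 (adjusted p = 0.132) and -0.76 in S288C (adjusted p = 0.0503) were not called. Without the shift the values of *HCR1* in NFRI 3236 and S288C and of *NIP1* in NFRI 3236 lay above 0, at 0.26, 0.28 and 0.10.

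All 4 genes of start codon selection and subunit joining fell in NFRI 3236 and in NFRI 3155 and 3 of them in S288C, with medians of -1.21, -1.31 and -0.87. Quantile normalization gave -0.74, -1.12 and -0.49, and no shift gave -0.37, -1.09 and -0.27. *TIF11* codes for eIF1A, which acts with eIF1 in scanning for the start codon. *TIF11* read 4.58 and 6.29 at 39°C in NFRI 3236, against 24.4 and 18.7 at 30°C. In NFRI 3155 it read 3.18 and 1.18 at 39°C, against 14.7 and 13.0 at 30°C. In S288C it read 7.25, 7.36 and 6.11 at 39°C, against 15.9, 20.2 and 17.5 at 30°C. No groups overlapped, and the 2 arrays of NFRI 3155 at 39°C lay further apart on the log scale than the arrays of any other group. The log2 differences of *TIF11* were -1.99 ± 0.36, -2.83 ± 0.36 and -1.36 ± 0.29 (SE) in NFRI 3236, NFRI 3155 and S288C (adjusted p = 8.32e-04, 4.28e-05 and 0.00157).

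*TIF5*, the factor eIF5 that activates the GTPase of eIF2, had 3.55 and 2.78 at 39°C in NFRI 3236, against 6.58 and 6.71 at 30°C. In NFRI 3155 *TIF5* had 2.16 and 1.66 at 39°C, against 6.06 and 4.35 at 30°C. In S288C it had 3.04, 2.33 and 2.81 at 39°C, against 5.57, 5.50 and 5.82 at 30°C. *TIF5* fell with no overlap, at log2 differences of -1.08, -1.44 and -1.05. *SUI1*, or eIF1, which guards the choice of start codon, fell at log2 differences of -1.33, -1.17 and -0.69 in NFRI 3236, NFRI 3155 and S288C, values that were -0.35, -0.47 and 0.30 and no longer called under quantile normalization. *FUN12*, coding for the GTPase eIF5B that joins the ribosomal subunits, fell in NFRI 3236 (-0.97) and NFRI 3155 (-1.13). Its -0.36 in S288C was not called (adjusted p = 0.118), and was 0.24 without the shift.

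Of the 3 subunits of eIF2, 2 fell in NFRI 3236, 3 in NFRI 3155 and 2 in S288C, with medians of -1.04, -1.36 and -0.65. The medians were -0.50, -1.01 and -0.19 with quantile normalization and -0.20, -1.15 and -0.05 with no shift. *GCD11*, the gamma subunit that binds GTP and the initiator tRNA, and *SUI3*, the beta subunit, fell in all 3 strains. *SUI2*, the alpha subunit that carries the regulatory phosphorylation site, passed the test in NFRI 3155 alone. *SUI2* read 4.88 and 7.04 at 39°C in NFRI 3236, against 8.58 and 8.15 at 30°C. In NFRI 3155 *SUI2* read 3.77 and 3.83 at 39°C, against 8.51 and 7.16 at 30°C. In S288C it read 6.35, 7.03 and 7.11 at 39°C, against 6.75, 6.49 and 7.53 at 30°C. The arrays of S288C overlapped between temperatures, and those of the NFRI strains did not. The log2 differences of *SUI2* were -0.51 ± 0.21, -1.04 ± 0.21 and -0.02 ± 0.17 (SE) in NFRI 3236, NFRI 3155 and S288C (adjusted p = 0.0735, 0.00158 and 0.933), and without the shift they were 0.33, -0.82 and 0.58.

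*GCD11* had 5.96 and 4.54 at 39°C in NFRI 3236, against 12.01 and 14.7 at 30°C. In NFRI 3155 *GCD11* had 3.93 and 4.07 at 39°C, against 14.2 and 12.9 at 30°C. In S288C it had 4.72, 4.05 and 4.21 at 39°C, against 9.01, 8.68 and 9.59 at 30°C. *GCD11* fell with no overlap, the log2 differences being -1.35, -1.76 and -1.07. *SUI3* had 5.81 and 6.45 at 39°C in NFRI 3236, against 12.6 and 12.5 at 30°C. In NFRI 3155 *SUI3* had 5.54 and 3.57 at 39°C, against 11.4 and 11.5 at 30°C. In S288C it had 7.73, 7.55 and 7.63 at 39°C, against 11.4, 13.1 and 11.6 at 30°C. *SUI3* gave log2 differences of -1.04, -1.36 and -0.65, again with no overlap. Under quantile normalization *SUI3* read -0.50 in NFRI 3236 and -0.19 in S288C, neither of them called.

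Of the 5 subunits of eIF2B, 3 fell in each strain, with medians of -0.91 in NFRI 3236, -0.68 in NFRI 3155 and -0.53 in S288C. The medians were -0.77, -0.63 and -0.53 under quantile normalization and -0.07, -0.47 and 0.07 without the shift. *GCN3* codes for the alpha subunit, which with the beta and delta subunits senses phosphorylated eIF2. *GCN3* had 1.86 and 2.58 at 39°C in NFRI 3236, against 4.34 and 4.18 at 30°C. In NFRI 3155 it had 1.75 and 1.53 at 39°C, against 3.76 and 3.36 at 30°C. In S288C it had 3.07, 1.94 and 1.80 at 39°C, against 3.28, 3.46 and 3.25 at 30°C. The log2 differences of *GCN3* were -0.96, -1.12 and -0.60, all past the test and without overlap, and the value in S288C was 0.0046 without the shift.

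*GCD6*, coding for the catalytic epsilon subunit, had 1.02 and 1.28 at 39°C in NFRI 3236, against 2.18 and 2.42 at 30°C. In NFRI 3155 *GCD6* had 1.33 and 1.21 at 39°C, against 2.43 and 2.32 at 30°C. In S288C it had 1.33, 1.22 and 1.92 at 39°C, against 1.84, 2.36 and 2.19 at 30°C, where the groups overlapped. *GCD6* fell at log2 differences of -1.01, -0.90 and -0.53, and the value in S288C was 0.07 without the shift. *GCD7*, the beta subunit, fell in NFRI 3236 (-0.91) and NFRI 3155 (-0.68), and its -0.05 in S288C was not called (adjusted p = 0.821). *GCD1*, the gamma subunit, was called in S288C alone (-0.53, adjusted p = 0.0131), with -0.03 in NFRI 3236 and -0.43 in NFRI 3155. Without the shift *GCD7* read 0.55 in S288C and *GCD1* read 0.81 in NFRI 3236 and 0.07 in S288C.

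Among the 6 elongation factors, 5 fell in NFRI 3236, 3 in NFRI 3155 and 5 in S288C, with medians of -1.24, -0.83 and -1.20. Under quantile normalization these medians shrank to -0.29, -0.31 and -0.19, and without the shift they were -0.40, -0.62 and -0.60. *TEF4*, a gamma subunit of the exchange factor eEF1B, had 10.02 and 14.4 at 39°C in NFRI 3236, against 41.0 and 26.4 at 30°C. In NFRI 3155 *TEF4* had 4.91 and 6.65 at 39°C, against 29.7 and 30.4 at 30°C. In S288C it had 4.89, 10.2 and 8.27 at 39°C, against 36.9, 30.1 and 33.1 at 30°C. The groups did not overlap in any strain, and the log2 differences of *TEF4* were -1.45 ± 0.33, -2.39 ± 0.33 and -2.16 ± 0.27 (SE) in NFRI 3236, NFRI 3155 and S288C (adjusted p = 0.00395, 8.22e-05 and 2.09e-05). Under quantile normalization *TEF4* read -0.36 in NFRI 3236, where the call was lost (adjusted p = 0.515), and -1.93 and -1.18 in NFRI 3155 and S288C, where it held. *CAM1*, the other gene for eEF1B gamma, fell in NFRI 3236 (-1.17), and its -0.40 in NFRI 3155 and -0.23 in S288C were not called, the last being 0.37 without the shift. *EFB1*, the nucleotide-exchanging alpha subunit of eEF1B, fell in NFRI 3236 (-0.93) and S288C (-0.86) and read -0.68 in NFRI 3155 (adjusted p = 0.0528). With quantile normalization *EFB1* turned to 0.41, 0.15 and 0.26 in NFRI 3236, NFRI 3155 and S288C, none of them called.

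*YEF3* codes for eEF3, an ATPase that fungal ribosomes need for elongation. *YEF3* had 20.3 and 18.1 at 39°C in NFRI 3236, against 70.2 and 41.2 at 30°C. In NFRI 3155 it had 19.7 and 25.0 at 39°C, against 51.6 and 44.2 at 30°C. In S288C it had 20.4, 22.5 and 17.3 at 39°C, against 69.4, 57.8 and 48.1 at 30°C. *YEF3* fell with no overlap, at log2 differences of -1.49, -1.10 and -1.53. They were -0.53, -0.50 and -0.27 under quantile normalization, where the call in S288C was lost (adjusted p = 0.149). The eEF2 probe set, named *EFT2* for the translocase, had 22.0 and 20.8 at 39°C in NFRI 3236, against 71.1 and 39.2 at 30°C. In NFRI 3155 *EFT2* had 20.3 and 28.2 at 39°C, against 49.6 and 44.9 at 30°C. In S288C it had 20.6, 17.7 and 14.3 at 39°C, against 69.2, 52.8 and 48.4 at 30°C. The log2 differences of *EFT2* were -1.30, -0.98 and -1.70, without overlap. Under quantile normalization they were -0.21, -0.40 and -0.41, and the calls in NFRI 3236 and NFRI 3155 were lost (adjusted p = 0.355 and 0.0775).

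The eEF1A probe set, named *TEF2* for the carrier of aminoacyl-tRNA, had 29.2 and 25.7 at 39°C in NFRI 3236, against 68.6 and 38.1 at 30°C. In NFRI 3155 *TEF2* had 30.9 and 35.7 at 39°C, against 46.6 and 42.9 at 30°C. In S288C it had 57.1, 52.3 and 25.4 at 39°C, against 93.1, 78.3 and 59.6 at 30°C. The arrays did not overlap within a strain, yet *TEF2* passed the test in S288C alone (-0.84, adjusted p = 0.0328), with -0.90 in NFRI 3236 (adjusted p = 0.0726) and -0.43 in NFRI 3155 (adjusted p = 0.378). With quantile normalization *TEF2* read 0.22 in NFRI 3236, 0.09 in NFRI 3155 and -0.02 in S288C, so that its call in S288C was lost (adjusted p = 0.895).

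The signals of 6 factors, most of them of elongation, lay near the top of the scale. *TIF2*, *TEF2*, *EFB1*, *TEF4*, *EFT2* and *YEF3* exceeded 50% of an array's highest signal on at least 1 array, and *TEF2* held 73.3 to 95.3% of it on every array, with deposited signals of 6831 to 11701. Across arrays of the same group, a gene whose signal follows the array's brightness has a slope of about 1 when log2 signal is set against the log2 75th percentile. The median slope was 0.95 over 4946 genes above background on all arrays and 0.96 over the other 26 factors, but 0.42 over these 6, with -0.09 for *TEF2*, 0.37 for *TIF2*, 0.39 for *EFT2*, 0.45 for *YEF3*, 0.54 for *EFB1* and 1.09 for *TEF4*. The part of this in the relative signals of the 6 genes was not tested. The other 26 factors gave 21 falls in NFRI 3236, 23 in NFRI 3155 and 16 in S288C.

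**Figure D3:**
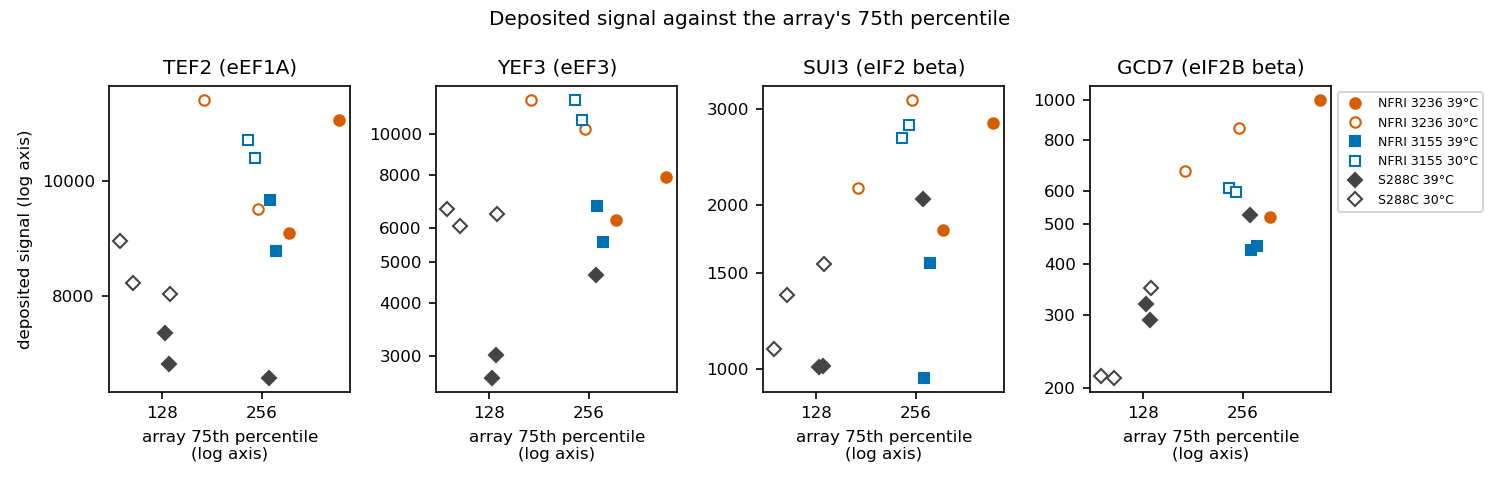
Deposited signal of *TEF2*, *YEF3*, *SUI3* and *GCD7* against the array's 75th percentile, both on log axes, 1 point per array, filled for 39°C and open for 30°C. Within groups the signal of *TEF2* (slope -0.09) and *YEF3* (0.45) followed the 75th percentile less than that of *SUI3* (1.04) and *GCD7* (0.96).

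Both release factors fell in NFRI 3236 and NFRI 3155 and neither passed the test in S288C, with medians of -1.29, -1.29 and -0.47, the last being 0.13 without the shift. *SUP45* codes for eRF1, which reads the stop codon. *SUP45* had 5.43 and 2.49 at 39°C in NFRI 3236, against 10.9 and 10.51 at 30°C. In NFRI 3155 it had 4.29 and 3.40 at 39°C, against 11.4 and 9.69 at 30°C. In S288C it had 4.23, 7.03 and 6.96 at 39°C, against 7.78, 9.13 and 7.88 at 30°C. *SUP45* was without overlap in each strain, at log2 differences of -1.54 ± 0.34, -1.46 ± 0.34 and -0.48 ± 0.27 (SE; adjusted p = 0.00291, 0.00345 and 0.160).

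*SUP35* codes for the GTPase eRF3, known in yeast for its prion form. *SUP35* had 2.48 and 1.95 at 39°C in NFRI 3236, against 4.03 and 5.08 at 30°C. In NFRI 3155 it had 2.63 and 1.81 at 39°C, against 4.59 and 4.93 at 30°C. In S288C the groups overlapped, with 3.43, 2.57 and 2.49 at 39°C, against 3.09, 4.37 and 4.23 at 30°C. The log2 differences of *SUP35* were -1.04 and -1.12 in NFRI 3236 and NFRI 3155, and -0.46 in S288C (adjusted p = 0.0905). The interval of the difference in heat response between NFRI 3236 and S288C was -1.999 to -0.12 for *SUP45* and -1.32 to 0.16 for *SUP35* (95%), and neither difference was called (adjusted p = 0.134 and 0.296).

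The size of the falls depended on how the arrays were scaled. Without the shift the median log2 difference of all genes was 0.74 in NFRI 3236, 0.13 in NFRI 3155 and 0.56 in S288C, and that of the factors was -0.26, -0.97 and -0.19. Relative to all genes, the factors lay at -1.0, -1.11 and -0.75 both with and without the shift, since it moves every gene of an array alike. Of all genes, 27.3% rose and 2.22% fell in NFRI 3236 without the shift, 10.9% rose and 9.24% fell in NFRI 3155, and 33.8% rose and 8.25% fell in S288C. Under quantile normalization the factors' medians were -0.69, -1.04 and -0.42 in NFRI 3236, NFRI 3155 and S288C. In these strains 16, 25 and 14 factors fell, beside 17.2%, 21.3% and 28.4% of all genes, and 3, 2 and 4 factors had values above 0. Quantile normalization ended 10 of the calls made with the shift in NFRI 3236, 2 in NFRI 3155 and 8 in S288C. The plot of medians by step shows that NFRI 3155 changed least among the scalings.

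**Figure D4:**
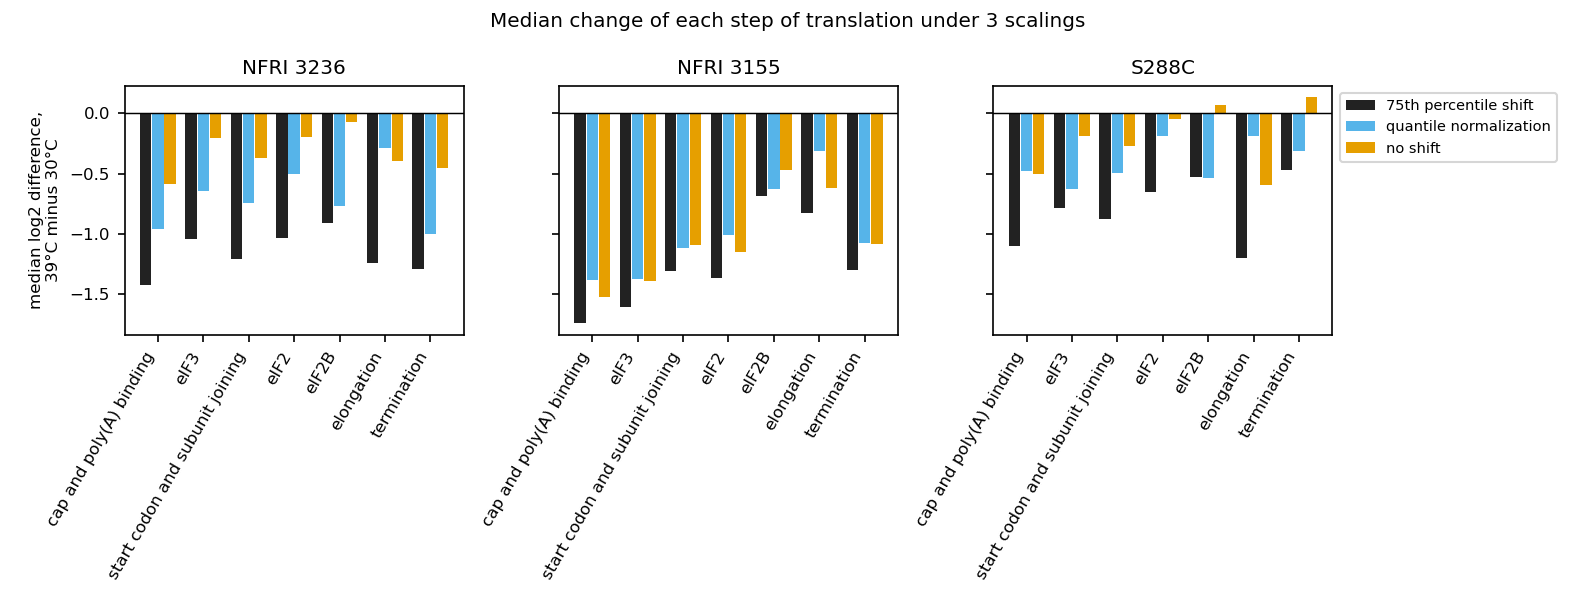
Median log2 difference at 39°C against 30°C of the factors of each step in the strains (panels NFRI 3236, NFRI 3155 and S288C) with the 75th percentile shift, quantile normalization and no shift. Medians are below 0 throughout except in S288C without the shift, where eIF2B read 0.07 and termination 0.13.

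The strains' heat responses were then set against each other. Against S288C, 1 factor (3.12%) had a lower heat response in NFRI 3236 and 6 (18.8%) had a lower one in NFRI 3155, with none higher. Of all genes, 5.82% were lower and 4.3% higher in NFRI 3236 than in S288C, and 8.87% lower and 7.64% higher in NFRI 3155. The factor called in both was *TIF4632*, with a difference of -2.16 ± 0.41 (log2, SE; adjusted p = 0.00727) for NFRI 3236 minus S288C and -2.61 ± 0.41 (adjusted p = 0.00175) for NFRI 3155 minus S288C. In NFRI 3155 minus S288C the others were *TIF4631* at -1.50 ± 0.43, *TIF11* at -1.47 ± 0.46, *SUI2* at -1.02 ± 0.27, *RPG1* at -0.92 ± 0.27 and *TIF34* at -0.87 ± 0.27 (adjusted p = 0.0323, 0.0469, 0.0244, 0.0338 and 0.0457). The 6 genes code for both forms of eIF4G, eIF1A, eIF2 alpha, eIF3a and eIF3i, and belong to initiation as 24 of the 32 factors do. Steps were not compared by a test. The 2 comparisons share the S288C arrays.

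*TIF4632* was the most secure of these calls. It was kept in all 14 fits that left out 1 array in NFRI 3155 minus S288C, with adjusted p of 0.00150 to 0.0132, and in 20 of 21 alternatives for NFRI 3236 minus S288C, the exception being no shift (log2 -1.92, adjusted p = 0.164). Of the 14 such fits in NFRI 3155 minus S288C, *SUI2* lost its call in 4, *TIF4631* in 7, *RPG1* in 8, *TIF34* in 10 and *TIF11* in 11, at adjusted p of up to 0.110, 0.12, 0.128, 0.142 and 0.150. For *TIF11* the difference was -0.75 without NFRI 3155 replicate 2 at 39°C. The count of 6 became 1 without NFRI 3155 replicate 1 or 2 at 30°C or S288C replicate 1 at 30°C. It was 2 without S288C replicate 2 at 39°C, or replicate 2 or 3 at 30°C, and 3 without S288C replicate 3 at 39°C. For NFRI 3236 minus S288C the count of 1 was 2 without NFRI 3236 replicate 1 at 39°C, NFRI 3236 replicate 2 at 30°C, or either NFRI 3155 array at 39°C.

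**Figure D5:**
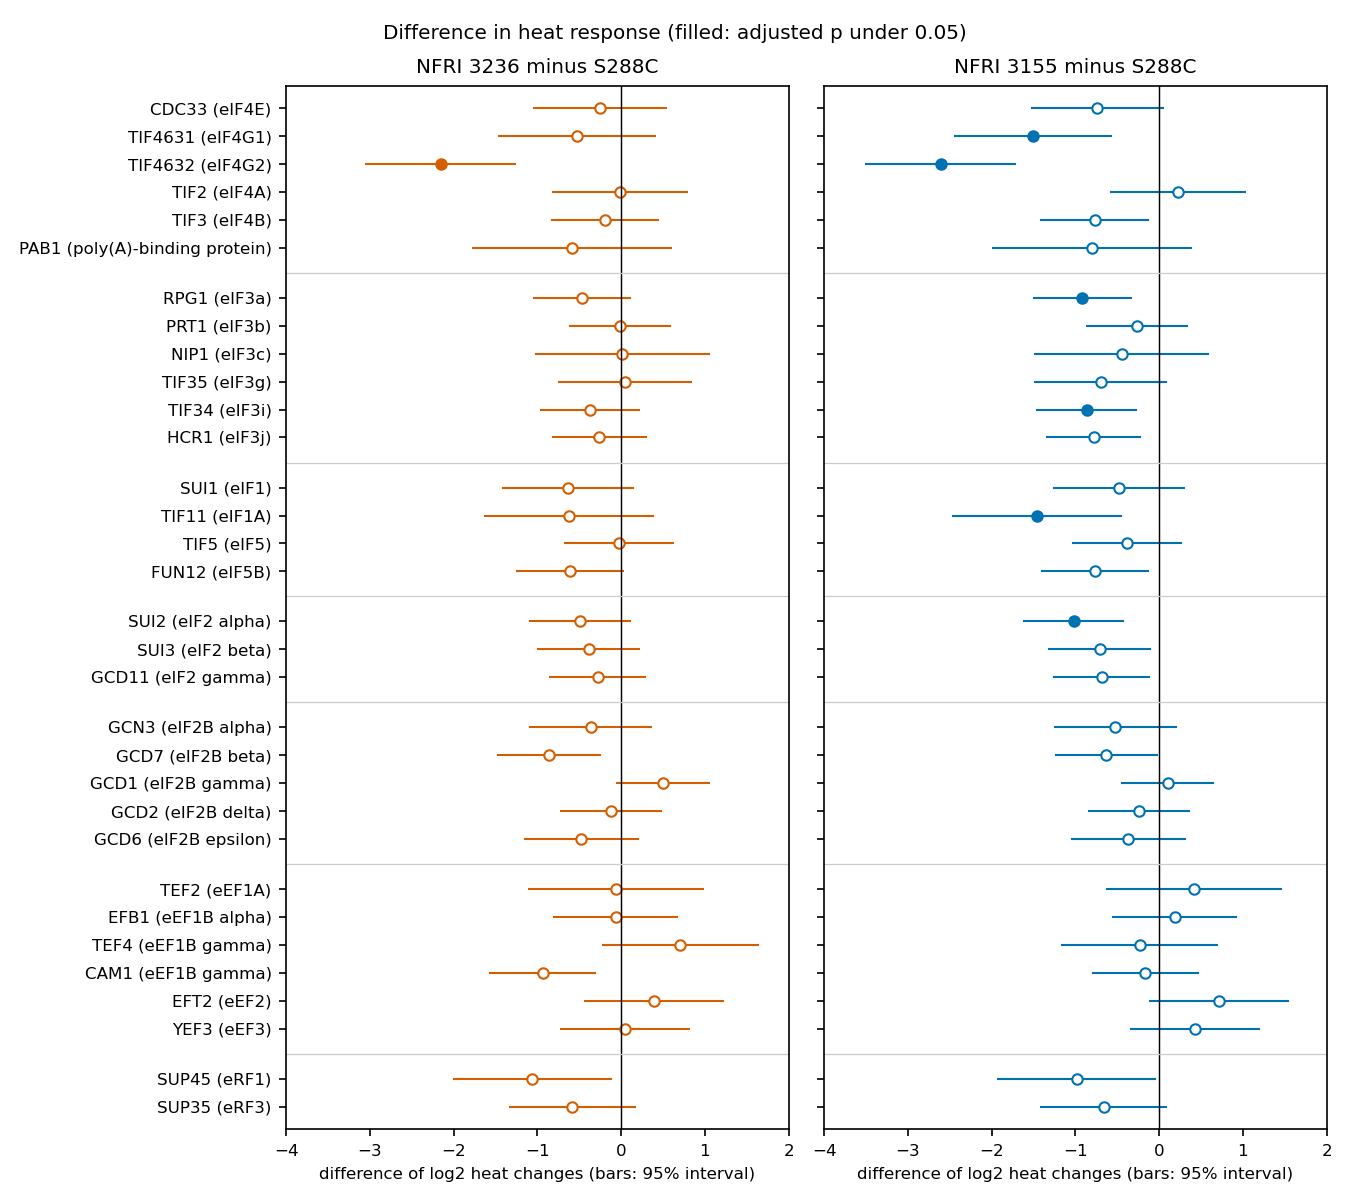
Difference of the log2 heat changes, NFRI 3236 minus S288C (left) and NFRI 3155 minus S288C (right), for each of the 32 factors, with 95% intervals and filled points for an adjusted p under 0.05. *TIF4632* is filled in both panels, at -2.16 and -2.61, and 5 further initiation factors are filled for NFRI 3155.

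Between NFRI 3236 and NFRI 3155 no heat response was called in limma for the 32 factors, 1 had an unadjusted p under 0.05, and 0.735% and 1.76% of all genes were higher and lower. That factor was *CAM1*, at -0.77 (95% interval -1.45 to -0.08, adjusted p = 0.255). The differences spanned -0.77 to 0.98 with a median of 0.29. *TIF4631* held the highest of them, 0.98 (95% interval -0.05 to 2.00) and an adjusted p of 0.334, so that differences of either sign lay within the interval. Without NFRI 3155 replicate 1 at 39°C, 1 heat response was called, that of *TIF11*, higher in NFRI 3236 (adjusted p = 0.0345).

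At 30°C some factors differed in relative signal between the NFRI strains and S288C. The study describes its strains as differing in genetic background. Whether strain differences in sequence under the probes or in gene copies enter these signals was not tested. In NFRI 3236, 8 of 32 factors were higher than in S288C and 1 was lower, beside 15.4% and 13.8% of all genes. They were *PAB1* (log2 difference 1.09), *TIF4632* (1.02), *RPG1* (0.98), *CAM1* (0.76), *PRT1* (0.70), *GCD7* (0.70), *HCR1* (0.57) and *GCD11* (0.55), and *GCD1* was lower (-0.58). In NFRI 3155, 5 of 32 were higher and none lower, beside 16.3% and 13.9% of all genes, so the higher share lay near that of all genes. The 5 were *TIF4632* (1.35), *TIF4631* (1.25), *RPG1* (0.68), *PRT1* (0.61) and *GCD11* (0.58). *TIF4632*, *RPG1*, *PRT1* and *GCD11* were thus higher in both NFRI strains than in S288C, whose arrays the comparisons share. Without the shift, where the medians of all genes were 0.93 in NFRI 3236 and 1.14 in NFRI 3155 against S288C, 20 and 23 factors were higher. So were 44% and 58% of all genes.

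*RPG1* had 5.39 and 5.42 in NFRI 3236 and 4.64 and 4.16 in NFRI 3155, against 2.78, 2.66 and 2.80 in S288C at 30°C. *PRT1* had 9.71 and 9.72 in NFRI 3236 and 9.57 and 8.69 in NFRI 3155, against 5.71, 5.77 and 6.43 in S288C. No array of S288C reached those of the NFRI strains for either gene. Leaving out 1 array moved the 8 higher factors of NFRI 3236 to 2 (without either of its arrays at 30°C), 3 (without S288C replicate 2 at 30°C), 4 (without S288C replicate 1 at 30°C) or 5 (without either NFRI 3155 array at 30°C). *GCD1* lost its call without any of the first 4 of these arrays. The 5 of NFRI 3155 moved to 0 and 2 without its replicate 2 and replicate 1 at 30°C, to 2 without S288C replicate 2 at 30°C, and to 3 without S288C replicate 1 or 3 at 30°C. Without S288C replicate 3 at 39°C, 1 factor was lower in NFRI 3155. Between NFRI 3236 and NFRI 3155 no factor was called at 30°C in limma, where 3 had an unadjusted p under 0.05 (*GCD7*, *CAM1* and *TIF4631*) and 4.45% and 4.46% of all genes were higher and lower.

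Genes that serve the same machinery were counted from a list of 50, of which 49 were tested. All 18 cytosolic aminoacyl-tRNA synthetases, which charge tRNAs for elongation, fell in NFRI 3236 and in NFRI 3155, and 16 fell in S288C, with medians of -1.60, -1.64 and -1.05. *ILS1*, *DED81* and *CDC60*, the synthetases for isoleucine, asparagine and leucine, had the most negative means over the strains, with log2 differences for *ILS1* of -1.94, -2.12 and -1.98 in NFRI 3236, NFRI 3155 and S288C. Of the other 31 genes, 14 fell and 2 rose in NFRI 3236, 15 fell and 1 rose in NFRI 3155, and 16 fell and 6 rose in S288C. Over all genes tested, 23.5%, 24.1% and 28.2% fell and 15.7%, 18.1% and 25.2% rose in NFRI 3236, NFRI 3155 and S288C. For comparison, 124, 123 and 125 of 127 cytosolic ribosomal protein genes fell, with medians of -1.67, -1.52 and -2.67 in NFRI 3236, NFRI 3155 and S288C.

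Among eIF5A and its modifying enzymes the largest change of the list was found. *ANB1*, the eIF5A gene expressed mainly without oxygen, had 1.35 and 3.17 at 39°C in NFRI 3236, against 43.6 and 25.1 at 30°C. In NFRI 3155 *ANB1* had 0.646 and 0.454 at 39°C, against 25.4 and 19.9 at 30°C. In S288C it had 0.711, 1.18 and 1.06 at 39°C, against 12.9, 16.3 and 14.5 at 30°C. *ANB1* fell in each strain with no overlap, the log2 differences being -3.998, -5.38 and -3.91. *HYP2*, the eIF5A gene expressed mainly with oxygen, fell in S288C (-0.94) and read -0.78 in NFRI 3236 and -0.73 in NFRI 3155, neither past the test. *DYS1* and *LIA1*, the enzymes that make hypusine on eIF5A, fell in all 3 strains, *LIA1* at log2 differences of -1.94, -2.98 and -1.78 in NFRI 3236, NFRI 3155 and S288C. *RLI1*, the ATPase that recycles ribosomes after termination, fell at log2 differences of -1.92, -2.32 and -2.28.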

How the data were processed

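The deposited value of each probe set is a linear signal intensity that the authors computed with GCOS, at default settings, from biotin-labelled polyadenylated RNA. Intensities under 1 were raised to 1. Their log2 was shifted so that every array had the same 75th percentile over 10928 probe sets. A gene entered the tests if all arrays of some group placed it above the array's 20th percentile (5443 genes, among them all 32 translation factors that had a probe set), and the brightest probe set stood for each of 47 genes with several. Tests were two-sided, from limma 3.58.1 in R 4.3.3, with a mean for each of 6 groups in 1 model (8 residual and 5.10 prior degrees of freedom, median posterior SD 0.27 in log2), and p-values were adjusted after Benjamini and Hochberg within a comparison. The number of arrays limits the precision. S288C had 3 arrays per temperature where the methods speak of duplicates, and all were used.

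The genes and lists were chosen with earlier results of these data known. Values per array are given for the 2 factors of each step with the largest mean absolute heat change, factors whose heat response differed between strains (the 4 largest per pair), factors that rose, and the near-identical pairs. From the related genes the 6 largest mean changes and the eIF5A genes are named. *RPG1* and *TIF34* were given per array after their values were seen, and *EAP1*, *CAF20*, *HEF3* and *GCN4* were chosen likewise. The alternatives were no shift, quantile normalization, 16 added to each signal, no filter, the mean of probe sets, a replicate block, each array left out, 2 S288C arrays per temperature and the methods' t-test. The code was tested on simulated data. No coordinates or sequences are given.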

Additional observations from a re-analysis of the deposited data

Results flagged for a closer look

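7 differences in heat response between strains were called by the interaction term of the limma model. *TIF4632*, an eIF4G gene, had a log2 difference of -2.16 for NFRI 3236 minus S288C and -2.61 for NFRI 3155 minus S288C, made of log2 changes at 39°C of -0.82 in NFRI 3236, -1.28 in NFRI 3155 and 1.33 in S288C. *TIF4631*, the other eIF4G gene, differed by -1.50 in NFRI 3155 minus S288C. In the same comparison *TIF11* (eIF1A) differed by -1.47, *SUI2* (eIF2 alpha) by -1.02, *RPG1* (eIF3a) by -0.92 and *TIF34* (eIF3i) by -0.87. On the S288C arrays at 30°C, 0 or 1 of 36 poly-A control probe sets exceeded background, and these arrays enter all 7 differences; the part of this in them was not tested.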

How the results depend on the processing

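Of 2508 values of the genes chosen by rule to be given per array, 2257 kept their sign and their side of the threshold under the alternatives, 162 lost a call and 17 gained one with the same sign, and 72 changed sign. Of these 72, 70 were called neither before nor after, and 2 had been called with the shift and changed sign without it, *GCN3* at 0.0046 and *GCD6* at 0.0684 in S288C. Without the shift the factors that fell numbered 0 in NFRI 3236, 11 in NFRI 3155 and 3 in S288C, with medians of -0.26, -0.97 and -0.19. Of all genes, 2.22%, 9.24% and 8.25% fell in these strains. Lower heat responses against S288C then numbered 0 for NFRI 3236 and 1 for NFRI 3155, beside 0.698% and 2.57% of all genes. Factors higher at 30°C than in S288C numbered 20 and 23, with 0 lower in NFRI 3236, where all-gene medians were 0.93 and 1.14. Of all genes, 44% and 58% were higher in NFRI 3236 and NFRI 3155, and 1.95% were lower in NFRI 3236. Quantile normalization gave 16 falls in NFRI 3236 and 14 in S288C, beside 17.2% and 28.4% of all genes, and medians of -0.69, -1.04 and -0.42. At 30°C it gave 2 higher in NFRI 3236 and 1 lower in NFRI 3155 than in S288C, beside 12.4% and 13.6% of all genes. With 16 added to each signal, 2 heat responses were lower in NFRI 3236 than in S288C, beside 6.93% of all genes. The methods' t-test called 15 falls in NFRI 3236 at its unadjusted threshold and 0 after Benjamini-Hochberg adjustment in NFRI 3236 and in NFRI 3155. With 2 S288C arrays per temperature, 1 heat response was lower in NFRI 3155 than in S288C, and at 30°C 4 factors were higher and 0 lower in NFRI 3236 and 2 higher and 1 lower in NFRI 3155 than in S288C. The cause of these changes was not tested.

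With each array left out, falls ranged over 20 to 27 in NFRI 3236, 21 to 29 in NFRI 3155 and 18 to 22 in S288C, with medians of -1.22 to -1.08, -1.28 to -1.14 and -0.87 to -0.71. Lower heat responses ranged over 1 to 2 for NFRI 3236 and 1 to 7 for NFRI 3155 against S288C, and higher ones over 0 to 1 for NFRI 3236 against NFRI 3155. At 30°C the factors higher than in S288C ranged over 2 to 8 and the lower ones over 0 to 1 in NFRI 3236, and over 0 to 5 and 0 to 1 in NFRI 3155. Of the named heat changes, these lost their call without 1 array: in NFRI 3236 *TIF35* (replicates 1 and 2 at 39°C, replicate 1 at 30°C), *GCN3* (replicate 1 at either temperature), *SUP35* (replicate 2 at either temperature) and *TEF4* and *EFT2* (replicate 1 at 30°C); in NFRI 3155 *TIF4632* (replicate 1 at 39°C, replicate 2 at 30°C), *TIF2* (replicate 1 at either temperature), *EFT2* (those and replicate 2 at 30°C) and *GCD6* and *YEF3* (replicate 1 at 30°C); and in S288C *GCN3* (all of its arrays but replicate 1 at 39°C), *TEF2* (replicate 3 at 39°C, replicates 1 and 2 at 30°C) and *GCD6* (replicates 1 and 2 at 39°C, 2 and 3 at 30°C, and NFRI 3155 replicates 1 and 2 at 30°C). The rise of *TIF4632* in S288C was called in each. Where a group was left with 1 array, it was assumed to vary like the others.

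Whether replicate numbers pair the arrays could not be decided. Of 31 same-numbered pairs 5 correlated above 0.1 (r = -0.39 to 0.20), and of 7 pairs within a strain none did. Pairs among the NFRI arrays gave the same r under both replicate numbers, so these counts hold repeated values. No pairs of differing number were set beside them. With the replicate number as a block, falls numbered 27 in NFRI 3236, 3 of 6 lower heat responses remained for NFRI 3155 minus S288C (*TIF4632*, *TIF4631* and *SUI2*), and at 30°C 5 factors were higher in NFRI 3236 and 1 lower in NFRI 3155 than in S288C.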

Other observations

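Of the 31 related genes other than synthetases, 2 rose in NFRI 3236, 1 in NFRI 3155 and 6 in S288C. *EAP1* and *HEF3*, each of which rose in at least 1 strain, are given here as examples picked after their values were seen. *CAF20* and *GCN4*, which fell, are given beside them. *EAP1*, a protein that binds eIF4E and represses translation, had relative signals of 0.283 and 0.414 at 39°C in NFRI 3236, against 0.290 and 0.450 at 30°C. In NFRI 3155 *EAP1* had 0.217 and 0.334 at 39°C, against 0.432 and 0.414 at 30°C. In S288C it had 0.500, 0.451 and 0.540 at 39°C, against 0.230, 0.176 and 0.233 at 30°C. The S288C arrays at 39°C were all above those at 30°C, while the groups overlapped in NFRI 3236. *EAP1* rose by 1.23 (log2, adjusted p = 6.16e-04) in S288C, with -0.08 and -0.65 not past the test in NFRI 3236 and NFRI 3155, and its heat response was lower than in S288C, by a log2 difference of -1.31 in NFRI 3236 (adjusted p = 0.0398) and -1.88 in NFRI 3155 (adjusted p = 0.00559). *CAF20*, the other eIF4E-binding repressor, fell in all 3 strains, at log2 differences of -1.84, -1.53 and -0.89.

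*HEF3*, a paralog of the eEF3 gene *YEF3*, rose in all 3 strains while *YEF3* fell. It had 0.228 and 0.162 at 39°C in NFRI 3236, against 0.0818 and 0.0677 at 30°C. In NFRI 3155 *HEF3* had 0.400 and 0.343 at 39°C, against 0.0970 and 0.129 at 30°C. In S288C it had 0.180, 0.299 and 0.292 at 39°C, against 0.0871, 0.151 and 0.127 at 30°C. No groups overlapped, and the log2 differences of *HEF3* were 1.37, 1.73 and 1.08. *HEF3* exceeded background on all 14 arrays, but its signals lay close to background on some arrays at 30°C and far below those of *YEF3* on all. *GCN4*, the transcription factor whose translation depends on eIF2 phosphorylation, fell at log2 differences of -1.20, -1.09 and -1.26 in NFRI 3236, NFRI 3155 and S288C.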
